A study of Mus musculus with 9 samples.

Results

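The genes described here encode thrombin receptors and proteins that start or restrain blood coagulation, read in RNA of the abdominal aorta of mice that carry an ApoE knockout. There are 10 of them among the 18830 genes listed in each of 9 libraries, chosen by name and found through their Entrez Gene IDs: F2r, F2rl1, F2rl2, F2rl3, F3, F10, Thbd, Tfpi, Procr and Pros1. Suprarenal aortas came from sham controls and from mice given angiotensin II (Ang II, a vasoconstrictor peptide) for 14 or 28 days, with 3 libraries in each of the 3 groups. Ang II was given by osmotic pump at 1000 ng/kg/min to induce abdominal aortic aneurysm, and the series names saline as the control infusion. All groups share the ApoE knockout, a strain background prone to atherosclerosis. The age and sex of the mice, whether a library is 1 mouse or a pool, and the day of the sham aortas are not given in the labels, and the sample titles say muscle where the tissue field says aorta.

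Coagulation begins when tissue factor, a membrane protein of cells around the vessel, meets plasma factor VII and the pair activates factor X. Activated factor X turns prothrombin into thrombin, which makes fibrin and also cleaves protease-activated receptors, G protein-coupled receptors that carry their own ligand in the part that the cut exposes. The wall holds brakes on each step: tissue factor pathway inhibitor blocks the first complex, and thrombomodulin on the endothelium turns thrombin into an activator of protein C, which works with the endothelial protein C receptor and protein S. In smooth muscle and endothelium these receptors are known for contraction, proliferation and inflammatory signalling. Aneurysms of the abdominal aorta often carry thrombus in their wall or lumen.

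Library totals ran from 9609690 to 14923936 expected counts, so a gene at 1 CPM (read counts scaled for library size with TMM factors) rests on about 10 to 15 reads. Several libraries stood apart in markers of tissues or cells that a dissected aorta can carry. The 13 macrophage and monocyte markers summed to 477 to 2363 CPM in sham, 3274 to 19270 at 14 days (19270 in replicate 2) and 3053 to 5215 at 28 days. The 10 contractile smooth muscle markers, which check the label of the tissue, were read in every library, with sums of 9932 to 29983 CPM in sham, 3751 to 17299 at 14 days and 2181 to 7352 at 28 days. The 11 nerve and Schwann cell markers summed to 6100 CPM in sham replicate 2, 2531 in 14-day replicate 1 and 2810 in 28-day replicate 2, against 88.7 to 1252 in the other libraries. The skeletal muscle markers summed to 16641 and 5731 CPM in 28-day replicates 1 and 2 and to at most 156 CPM elsewhere, and the brown fat markers to 4515 to 9582, 1093 to 2670 and 1970 to 5483 CPM in the 3 groups. Acta2, smooth muscle actin, was 957 to 13376 CPM, Cd68, of macrophages, 11.7 to 1479 CPM, and Dbh, of sympathetic neurons, at a count of 0 in sham replicate 3 and at 1755 CPM in sham replicate 2. The 13 endothelial markers summed to 948 to 1227, 1079 to 1652 and 1344 to 2226 CPM in the 3 groups. In such bulk RNA, fewer cells of a type and less RNA per cell cannot be told apart.

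By edgeR's quasi-likelihood test with Benjamini-Hochberg adjustment over the 14741 genes tested, 0 genes (0%) passed the threshold of 0.05 in each of the 4 comparisons, and therefore 0 of the 10 genes. At an unadjusted p under 0.05 there were 3460 genes at 14 days against sham, 2042 at 28 days against sham, 903 between the 2 times and 3168 for the mean of both times against sham; of the 10 genes these were 4, 1, 1 and 4. DESeq2, a test that calls more genes at this size, passed 13.4% of all genes at 14 days, 6.58% at 28 days, 0.800% between the times and 12.2% for the mean of both times. Among the 10 genes DESeq2 passed F2r, Tfpi and F10 at 14 days, 0 at 28 days, F2r between the times, and Tfpi and F10 for the mean of both times. Since the tools differ in every call, the text gives values in each library, and no gene is said to have changed.

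**Figure D1:**
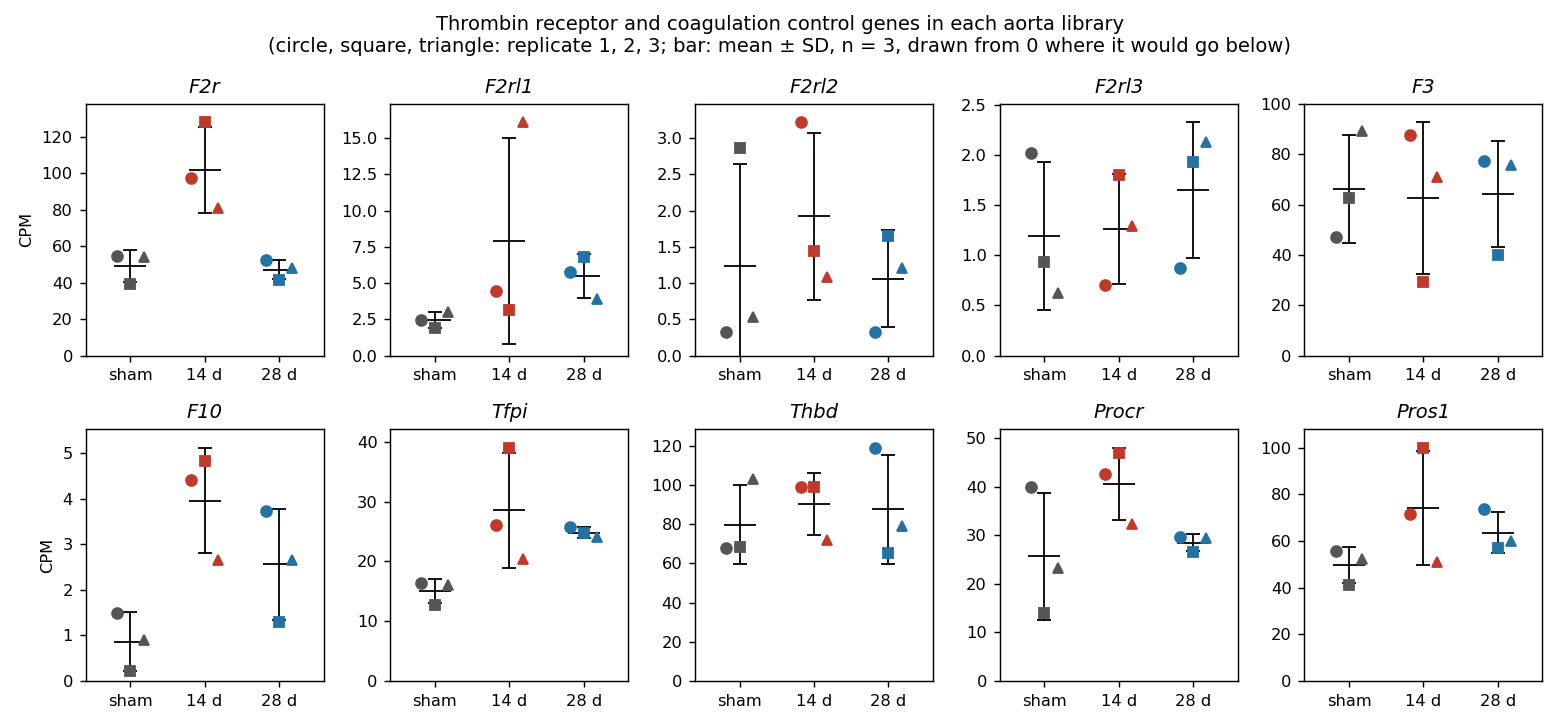
Normalised read counts (CPM, y axis from 0) of the 10 genes in the 3 groups (x axis), with 1 point for each library and bars for mean ± SD (n = 3). F2r lies at 80.8 to 128 CPM at 14 days and at 39.2 to 54.8 CPM in the 6 other libraries, while the ranges of F3 and Thbd overlap in all groups.

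Counted by libraries, 4 of the 10 genes had all 14-day libraries above all sham libraries: F2r, F2rl1, F10 and Tfpi. Of all genes tested, 12.6% were arranged so. At 28 days 3 of the 10 genes lay above sham without overlap, F2rl1, Tfpi and Pros1, where 12.2% of all genes did. For both times together the 2 genes with all 6 Ang II libraries above all sham libraries were F2rl1 and Tfpi, against 8.57% of all genes. Between the times, F2r and Procr were lower at 28 days than at 14 days in every library, as were 5.71% of all genes. The median log2 fold change of the 10 genes was 0.63 at 14 days and 0.25 at 28 days, beside -0.07 and -0.08 for all genes tested. Both comparisons use the same sham libraries.

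Among the receptors, F2r, which encodes PAR1, the main thrombin receptor of the vessel wall, was about 2 times as high at 14 days as in the other groups. It was read at 54.8, 39.2 and 54.0 CPM in sham replicates 1 to 3, at 97.2, 128 and 80.8 CPM at 14 days, and at 52.2, 41.5 and 48.0 CPM in the 28-day aortas. The 14-day libraries all lay above the 6 others, and the 28-day range lay inside that of sham. The log2 fold change was 1.05 ± 0.22 (SE) at 14 days against sham (2.07-fold; edgeR adjusted p = 0.117, DESeq2 adjusted p = 0.000617). Between 28 and 14 days it was -1.11 ± 0.22 (edgeR adjusted p = 0.77, DESeq2 adjusted p = 0.00165), and at 28 days against sham -0.06 ± 0.22 (edgeR adjusted p = 0.95). The counts behind these values were 477 to 1771 reads a library.

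When single libraries were left out, the 14-day difference of F2r from sham was smallest without 14-day replicate 2, at 0.87 log2. It was largest without 14-day replicate 3, at 1.19 log2. These were the highest and the lowest F2r library of that group, so the shifts follow whatever their cell makeup. Without the 3 nerve-rich libraries the difference was 0.98 log2. The 14-day library with the highest F2r, replicate 2, had the lowest sum of smooth muscle markers of that group, 3751 CPM, and the highest sum of macrophage markers, 19270 CPM. Macrophage sums were 3274 and 3428 CPM in 14-day replicates 1 and 3, and 3053, 3985 and 5215 CPM at 28 days. The part of cell makeup in the difference was not tested.

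F2r is a protein-coding gene on the minus strand of chromosome 13 (Entrez 14062, GRCm38.p6, 95601803 to 95618487) with 2 exons. F2rl1 lies 76575 bases from it (Entrez 14063, 95511732 to 95525227) and F2rl2 78365 bases on the other side (Entrez 14064, 95696853 to 95702739), so 3 of the 4 receptor genes sit in 1 cluster. The values of both neighbours are given below. The 250 bases before the RefSeq start site (GRCm38.p6) were at hand for 8 of the 10 genes, of which 4 are printed: F2r, whose 14-day libraries stood above all others, Tfpi, which was above sham at both times, Procr, whose 28-day libraries were all below the 14-day ones, and F3, whose groups overlapped. They read 5′ to 3′ on the strand of the gene, and capitals mark the words TGANTCA (AP-1) and GGGCGG (Sp1) on either strand. The window of another RefSeq start site of Tfpi (chr2:84474175-84474424) is not printed and also held the Sp1 word. Gene positions in the text are those of GENCODE, which differ from the RefSeq start for some genes. The printed windows of F2r, Tfpi and Procr therefore end inside the GENCODE gene. For Procr the bases from 155751117 to 155751216 lie in both.
F2r, chr13:95618467-95618716, minus strand: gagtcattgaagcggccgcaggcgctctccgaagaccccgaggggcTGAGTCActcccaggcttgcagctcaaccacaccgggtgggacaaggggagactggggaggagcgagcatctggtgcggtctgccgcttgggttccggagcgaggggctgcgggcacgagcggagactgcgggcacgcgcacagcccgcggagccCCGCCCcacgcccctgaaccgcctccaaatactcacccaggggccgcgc
Tfpi, chr2:84476760-84477009, minus strand: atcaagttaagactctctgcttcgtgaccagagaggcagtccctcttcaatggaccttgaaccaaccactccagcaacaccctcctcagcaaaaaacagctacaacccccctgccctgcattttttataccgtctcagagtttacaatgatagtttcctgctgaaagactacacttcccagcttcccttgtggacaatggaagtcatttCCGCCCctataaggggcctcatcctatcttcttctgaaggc
Procr, chr2:155750967-155751216, plus strand: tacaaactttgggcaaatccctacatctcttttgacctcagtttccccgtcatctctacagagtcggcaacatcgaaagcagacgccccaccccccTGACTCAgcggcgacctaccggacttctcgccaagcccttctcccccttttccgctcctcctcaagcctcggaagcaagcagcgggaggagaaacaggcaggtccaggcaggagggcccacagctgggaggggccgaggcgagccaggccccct
F3, chr3:121723287-121723536, plus strand: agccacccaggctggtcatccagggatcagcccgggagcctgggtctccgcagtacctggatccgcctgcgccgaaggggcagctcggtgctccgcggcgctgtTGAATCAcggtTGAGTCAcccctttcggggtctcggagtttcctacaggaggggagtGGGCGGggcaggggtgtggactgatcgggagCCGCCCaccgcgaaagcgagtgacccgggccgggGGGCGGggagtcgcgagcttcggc

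The AP-1 word was found before the start of F2r, F2rl2, F3 and Procr, 4 of the 8 genes, and in 6.75% of 32841 mouse promoter windows of the same length. Counted from the RefSeq start site, F2r had 1 such word, starting 204 bases before it. F3 had 2, at 146 and 135 bases, and Procr had 1, at 154 bases. The Sp1 word was found for F2r, F3, Tfpi and Pros1, and in 32.8% of all windows. No window of the 8 genes held an exact match to the NF-kB pattern GGGRNWYYCC (in 3.90% of all windows). In it R is A or G, W is A or T, and Y is C or T, and looser NF-kB sites were not searched. The word GCGNGGGCG of EGR1 (4.70%) and the CArG box of serum response factor (1.47%) were not found either. The genes with the AP-1 word did not share 1 course: F2r and Procr were lower at 28 than at 14 days without overlap, and the groups of F3 overlapped. A match is a run of letters, and binding was not measured.

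F2rl1 encodes PAR2, a receptor that trypsin-like proteases and the tissue factor complexes activate, and that thrombin cleaves poorly. Its levels were 2.45, 1.93 and 3.03 CPM in sham, 4.48, 3.17 and 16.1 CPM after 14 days, and 5.80, 6.81 and 3.87 CPM after 28 days. All 6 Ang II libraries were above all 3 sham libraries, by a narrow margin in 14-day replicate 2. It was 1.68 ± 0.62 log2 higher than sham at 14 days (edgeR adjusted p = 0.164) and 1.15 ± 0.61 log2 higher at 28 days (edgeR adjusted p = 0.491). Over both times it was 1.42 ± 0.56 (DESeq2 adjusted p = 0.085).

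The highest F2rl1 value, 16.1 CPM in 14-day replicate 3, stood in the library with the highest sum of 8 lymphocyte markers, 1452 CPM. Without that library F2rl1 was 0.63 log2 higher at 14 days than in sham, and 0.52 log2 higher at 28 days than at 14 days in place of 0.53 ± 0.60 log2 lower. The lymphocyte sums were 7.94 to 9.8 CPM in sham, 39.7 and 68.9 in the other 14-day libraries, and 39.8, 930 and 143 at 28 days. The 28-day library with the sum of 930 CPM was also the one with the highest F2rl1 of its group, 6.81 CPM. Whether lymphoid tissue or another cell type carried the reads was not tested.

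F2rl2 encodes PAR3, which in mice helps thrombin to cleave PAR4. It had 0.320, 2.86 and 0.534 CPM in sham, 3.22, 1.44 and 1.09 CPM after 14 days, and 0.328, 1.65 and 1.21 CPM after 28 days, with 3 to 46 reads a library. The groups overlapped in each comparison, and the log2 fold change was 0.60 ± 0.91 at 14 days and -0.22 ± 0.92 at 28 days (edgeR adjusted p = 0.724 and 0.956). The highest value of every group was in its nerve-rich library. Without sham replicate 2 the differences from sham were 2.13 log2 at 14 days and 1.30 log2 at 28 days, and without the 3 nerve-rich libraries 1.56 and 0.81 log2. Without 14-day replicate 1, the nerve-rich library of that group, the 14-day difference was 0.01 log2. The part of nerve tissue was not tested. The gene lies on the plus strand within Iqgap2, which runs on the minus strand, and overlaps 0 of its exons. The strandedness of the counting is not given in the sources used here, so the reads of F2rl2 are uncertain in that respect. Iqgap2 was read at 7.14, 9.15 and 4.45 CPM in sham, 14.1, 35.8 and 21.5 CPM after 14 days, and 10.7, 21 and 15 CPM after 28 days. Its highest library was that of F2rl2 in sham and at 28 days, and another one at 14 days, and its part in the F2rl2 reads was not tested.

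F2rl3 encodes PAR4, the thrombin receptor of mouse platelets. It was among the lowest of the 10 genes, with 7 to 28 reads a library. The levels were 2.02, 0.930 and 0.623 CPM in sham, 0.701, 1.80 and 1.29 CPM after 14 days, and 0.876, 1.93 and 2.13 CPM after 28 days. The groups overlapped, with log2 fold changes of 0.09 ± 0.61 and 0.48 ± 0.61 against sham. The 11 platelet and megakaryocyte markers summed to 37.9 to 47.9 CPM in sham, 45.1 to 378 at 14 days and 59.4 to 97.7 at 28 days, with 378 CPM in 14-day replicate 2. Within that list Pf4 ran from 12.8 to 332 CPM and Ppbp from 0.426 to 16.3 CPM, both highest in 14-day replicate 2. Itga2b ran from 2.14 to 32.7 CPM and Gp1ba from 3.03 to 6.29 CPM. In 14-day replicate 2 these were at 4.9 and 3.03 CPM, and the 32.7 CPM of Itga2b was in 28-day replicate 2. Gp9, Gp6, Gp5 and Tubb1 were each at most 0.533 CPM in any library. The part of platelets in the F2rl3 reads was not tested.

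**Figure D2:**
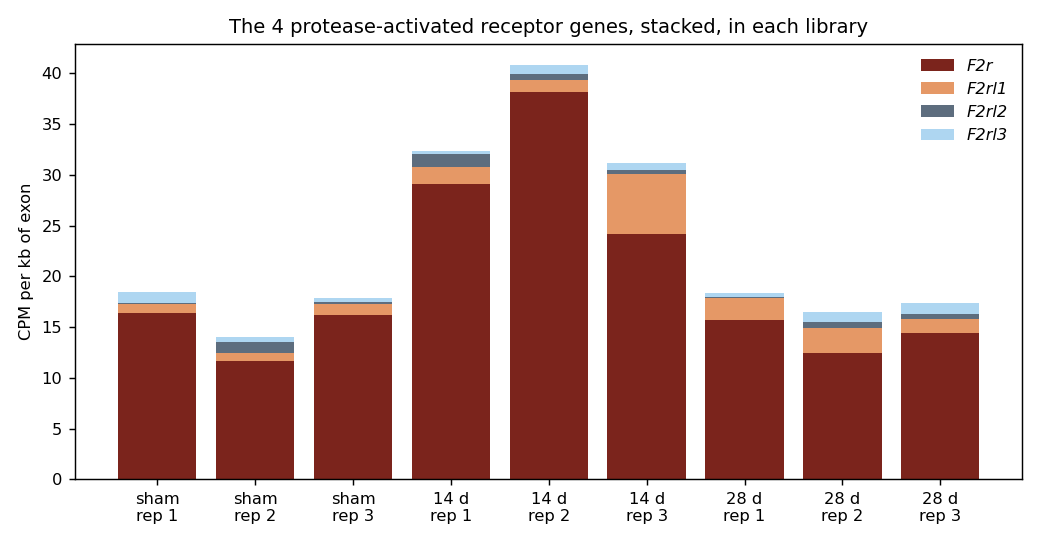
Levels of the 4 receptor genes in CPM per kb of exon (y axis), stacked in each of the 9 libraries (x axis). The stacks reach 31.2 to 40.9 at 14 days and 14.1 to 18.5 in the sham and 28-day libraries, and F2r makes up at least 75.2% of each.

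Per length of exon, F2r made up most of the receptor message. Its share of the 4 receptors' summed level (CPM per kb) was 87.8 ± 3.84% in sham, 87.1 ± 8.32% at 14 days and 81.1 ± 5.28% at 28 days (SD, n = 3). The summed level was 16.8 ± 2.36 CPM per kb in sham, 34.8 ± 5.29 at 14 days and 17.4 ± 0.902 at 28 days. The 14-day stacks were all above the 6 others. The share of F2rl1 was 4.8%, 5.0% and 6.2% in sham and 11.5%, 15.0% and 8.1% at 28 days, without overlap, while at 14 days it was 5.0%, 2.8% and 18.8%.

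Of the genes that start coagulation, F3, which encodes tissue factor, had group means close to each other. It was read at 47.0, 62.6 and 89.2 CPM in sham, 87.5, 29.2 and 71.1 CPM after 14 days, and 77.3, 39.9 and 75.7 CPM after 28 days (Entrez 14066, chromosome 3, 121723537 to 121735048). The spread within each group was wider than any difference between means, which were 66.2, 62.6 and 64.3 CPM. The log2 fold change was -0.08 ± 0.44 at 14 days and -0.04 ± 0.44 at 28 days (edgeR adjusted p = 0.924 and 0.981). The lowest F3 values, 29.2 and 39.9 CPM, stood in 14-day replicate 2 and 28-day replicate 2, with smooth muscle sums of 3751 and 2781 CPM. The library with the lowest sum of all, 28-day replicate 3 at 2181 CPM, had 75.7 CPM of F3. The part of smooth muscle in these values was not tested. Per length F3 had the highest mean of the 10 genes over the 9 libraries, 25.5 CPM per kb, followed by Thbd at 23.1 and F2r at 19.8, and the ranges of the 3 overlapped. By group, F2r was the highest of them at 14 days, at 30.5 CPM per kb against 24.8 for F3 and 24.2 for Thbd, and the lowest in sham (14.8) and at 28 days (14.2). Over all libraries, Procr (15.6) and Pros1 (15.3) came next, with ranges that overlapped those of F2r and of each other. Tfpi, at 4.17 CPM per kb and at most 7.15, lay below every library of Pros1, whose lowest was 10.1. F2rl1 (1.93), F10 (0.901), F2rl3 (0.685) and F2rl2 (0.562) followed, each overlapping its neighbour in the order.

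F10 encodes factor X, a plasma protease made mainly in the liver, which monocytes and macrophages are also known to express. It was low, with 1.49, 0.215 and 0.890 CPM in sham (14, 3 and 10 reads), 4.41, 4.83 and 2.65 CPM after 14 days, and 3.72, 1.29 and 2.66 CPM after 28 days (Entrez 14058, chromosome 8, 13037308 to 13056676). All 14-day libraries were above all sham libraries, and 5 of the 6 Ang II libraries were. The log2 fold change was 2.20 ± 0.70 at 14 days (edgeR adjusted p = 0.136, DESeq2 adjusted p = 0.0201) and 1.57 ± 0.70 at 28 days (edgeR adjusted p = 0.377). Beside it, the macrophage sum was lowest in sham replicate 2 (477 CPM) and highest in 14-day replicate 2 (19270 CPM), as F10 was. Between these ends the orders differed: 28-day replicate 2, with a sum of 3985 CPM, had 1.29 CPM of F10, and 14-day replicate 1, with 3274 CPM, had 4.41 CPM. The part of macrophages in the difference was not tested. Without 14-day replicate 2 the 14-day value was 2.06 log2, and without sham replicate 2 it was 1.73 log2.

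The 11 hepatocyte markers summed to 5.36 to 10.7 CPM in any library, and Alb (albumin) was at most 2.24 CPM. Of the list of other coagulation factors, F2 (prothrombin), F9, F11 and Fga, a fibrinogen chain, were too low to be tested, with group means of at most 0.0478, 0.403, 0 and 0.122 CPM. F7, which encodes factor VII, the partner of tissue factor, was tested, with 3.30, 0.0715 and 0.623 CPM in sham, 2.52, 6.99 and 1.22 CPM after 14 days, and 2.08, 0.788 and 1.67 CPM after 28 days. F5, which encodes the cofactor of activated factor X, was tested as well, at 0.358 to 3.96 CPM. Both F7 and F5 were highest in 14-day replicate 2 and lowest in sham replicate 2, as F10 was. The source of these reads was not tested.

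**Figure D3:**
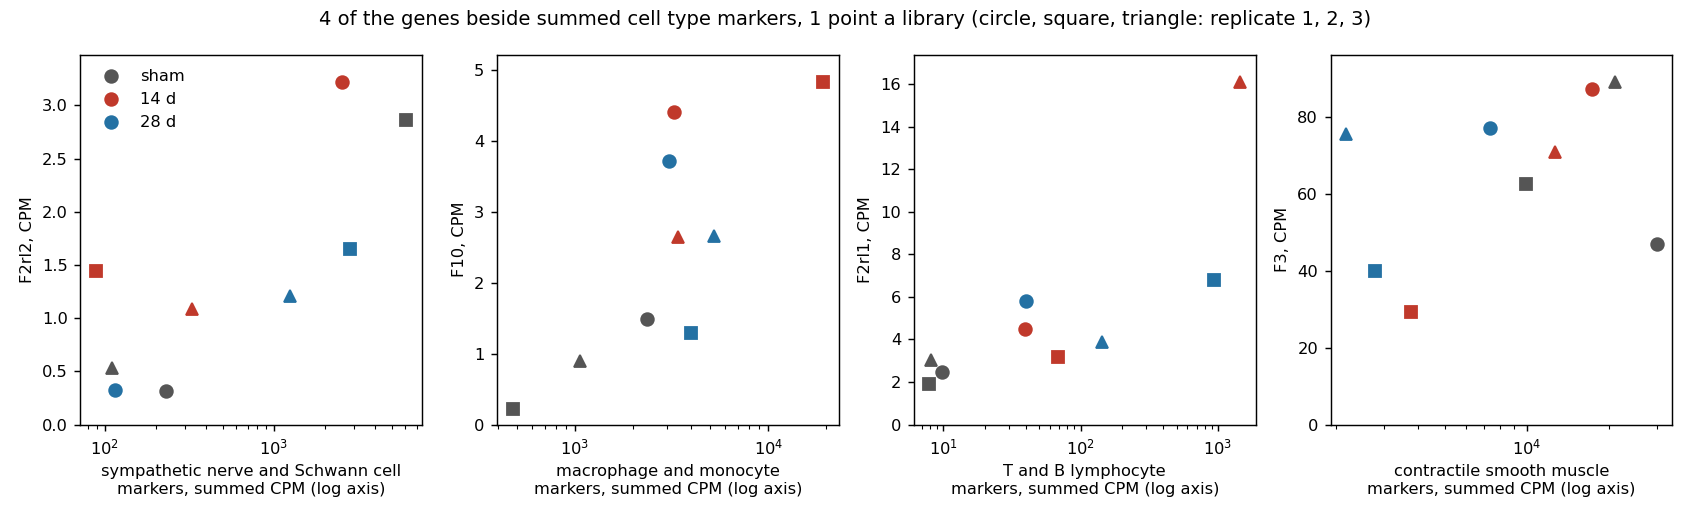
F2rl2, F10, F2rl1 and F3 in CPM (y axes, from 0) beside the summed CPM of the nerve, macrophage, lymphocyte and smooth muscle markers (x axes, log scale), 1 point a library. F2rl2 is highest in the nerve-rich library of each group, and F10 is lowest where macrophage markers are lowest, in sham replicate 2.

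Of the inhibitors, Tfpi, which encodes the inhibitor of the tissue factor and factor X complex, was higher than sham at both times. It was read at 16.3, 12.7 and 16.1 CPM in sham, 26.1, 39.0 and 20.4 CPM after 14 days, and 25.8, 24.7 and 24.0 CPM after 28 days (Entrez 21788, chromosome 2, 84432855 to 84476775). All 6 Ang II libraries were above all 3 sham libraries, and the 28-day libraries lay within 2 CPM of each other. The log2 fold change was 0.92 ± 0.25 at 14 days (1.90-fold; edgeR adjusted p = 0.117, DESeq2 adjusted p = 0.0139) and 0.72 ± 0.25 at 28 days (1.65-fold; edgeR adjusted p = 0.255, DESeq2 adjusted p = 0.122). For the mean of both times it was 0.82 ± 0.22 (edgeR adjusted p = 0.126, DESeq2 adjusted p = 0.0129). Without 14-day replicate 2 the 14-day value was 0.65 log2, and without the 3 nerve-rich libraries it was 0.92 log2 at 14 days and 0.58 log2 at 28 days. Endothelial markers summed to 948 to 1227 CPM in sham, to 1652, 1079 and 1333 CPM after 14 days and to 2226, 1360 and 1344 CPM after 28 days, so 5 of the 6 Ang II libraries were above the sham range. The exception, 14-day replicate 2 at 1079 CPM, was the library with the highest Tfpi, 39.0 CPM. The part of endothelial cells in the Tfpi difference was not tested.

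Within a library the ratio of 2 genes does not depend on the scaling. The level ratio of Tfpi to F3, each per length, was 0.160, 0.094 and 0.084 in sham, 0.138, 0.619 and 0.133 at 14 days, and 0.155, 0.286 and 0.147 at 28 days. The groups overlapped at sham replicate 1, and the high ratio of 0.619 was in 14-day replicate 2, where F3 was lowest and Tfpi highest. Tfpi was below F3 per length in every library, with lengths of 5463 bases for Tfpi and 2527 for F3. These lengths merge the exons of all annotated transcripts, 10 for Tfpi and 4 for F3. Which transcripts the aorta expressed was not tested, and the ratios depend on it. In CPM without length, Tfpi was above F3 in 14-day replicate 2, at 39.0 against 29.2.

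The genes of the protein C pathway differed from each other. Thbd, which encodes thrombomodulin, the endothelial protein that redirects thrombin, had overlapping groups: 67.6, 68.5 and 103 CPM in sham, 99.2, 99.2 and 71.9 CPM after 14 days, and 119, 65.4 and 79.0 CPM after 28 days (Entrez 21824, chromosome 2, 148404466 to 148408188, a gene with 1 exon). The comparisons gave log2 fold changes of 0.18 ± 0.28 and 0.14 ± 0.28 against sham (edgeR adjusted p = 0.735 and 0.924). The highest value, 119 CPM, was in 28-day replicate 1, the library with the highest endothelial sum, 2226 CPM. The lowest, 65.4 CPM, was in 28-day replicate 2, whose endothelial sum of 1360 CPM was above the sham range of 948 to 1227 CPM. The part of endothelial cells in the Thbd values was not tested.

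Procr encodes the endothelial protein C receptor. It was read at 39.9, 14.1 and 23.2 CPM in sham, 42.6, 47.0 and 32.4 CPM after 14 days, and 29.6, 26.5 and 29.5 CPM after 28 days (Entrez 19124, chromosome 2, 155751117 to 155755471). Sham replicate 1 was above 14-day replicate 3 and below the other two, so those groups overlapped, while every 28-day library was below every 14-day library. Procr had a log2 fold change of 0.66 ± 0.34 at 14 days against sham (edgeR adjusted p = 0.284), 0.15 ± 0.34 at 28 days (edgeR adjusted p = 0.933) and -0.51 ± 0.34 between the times (edgeR adjusted p = 0.78, DESeq2 adjusted p = 0.703). Without sham replicate 2, the lowest library, the 14-day value was 0.37 log2 and the 28-day value turned to -0.15 log2, and without sham replicate 1, the highest of its group, they were 1.12 and 0.61 log2.

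Pros1 encodes protein S, the cofactor of activated protein C, which is also a ligand of receptors for clearance of dead cells. It was read at 55.7, 41.2 and 52.2 CPM in sham, 71.4, 100 and 51.1 CPM after 14 days, and 73.8, 57.2 and 59.8 CPM after 28 days (Entrez 19128, chromosome 16, 62854307 to 62929346). Of the 6 Ang II libraries 5 were above all sham libraries, the exception being 14-day replicate 3. Against sham, Pros1 had a log2 fold change of 0.58 ± 0.26 at 14 days (edgeR adjusted p = 0.218) and 0.35 ± 0.25 at 28 days (edgeR adjusted p = 0.654). Without 14-day replicate 2 the 14-day value was 0.32 log2. Proc, which encodes protein C itself, had group means of at most 0.0492 CPM.

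**Figure D4:**
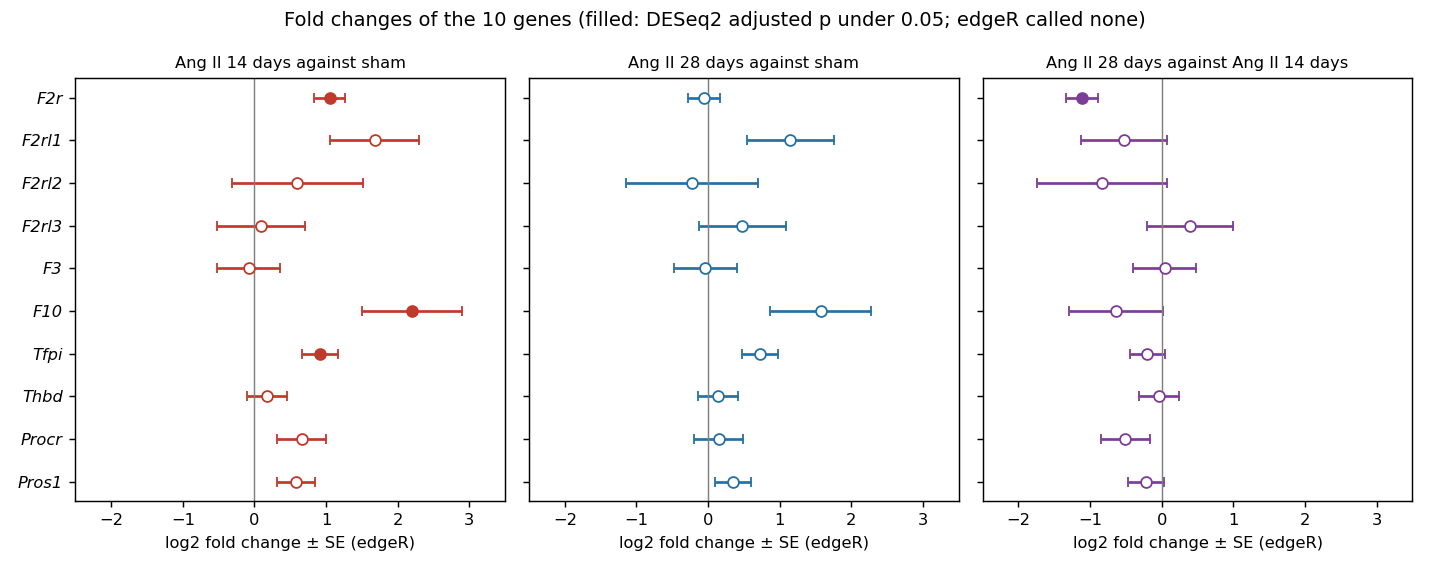
Log2 fold changes ± SE from edgeR (x axes) of the 10 genes (y axis) in 3 comparisons, filled where DESeq2 passed the gene. F2r stands at 1.05 at 14 days, -0.06 at 28 days and -1.11 between them, while Tfpi stands at 0.92 and 0.72 against sham.

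The libraries did not contribute evenly. Sham replicate 2 was the lowest of the 9 libraries for 6 of the 10 genes, F2r, F2rl1, F10, Tfpi, Procr and Pros1, and 14-day replicate 2 was the highest for 5, the same genes without F2rl1. Over all genes tested, sham replicate 2 was the lowest for 18.7% and the highest for 19.7%, and 14-day replicate 2 was the highest for 20.2% and the lowest for 25.7%. Replicate 3 was the lowest 14-day library for F2r, F10, Tfpi, Procr, Pros1, Thbd and F2rl2. The share of all genes with their lowest 14-day value there was not computed. Sham replicate 2 and 14-day replicate 2 are the libraries with the lowest and the highest macrophage sums, and the part of cell makeup was not tested.

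By likeness over the 9 libraries, taken as the root mean square difference of centred log2 CPM among 10735 other genes of at least 10 CPM, the nearest to F2r were Elovl1 and Ckap4 (0.19 and 0.21 log2, where the spread of F2r itself was 0.55). Nearest to Tfpi were Elk3 and Selenop (0.13 and 0.14), to Pros1 Mvp and Pdia6 (0.13 and 0.14), and to Procr Alpk1 and Gm2a (0.17 and 0.19). The nearest to F10 were the chemokine genes Ccl6 and Ccl9, at a wide 0.46 and 0.49 log2, beside a spread of 1.13. For F3 they were Dpep1 and Clec3b (0.19 and 0.21), for Thbd Ccnyl1 and Lrp5 (0.09 and 0.11), for F2rl1 Sigirr and Prkd2 (0.25 and 0.26), and for F2rl3 Rsc1a1 and Sec11c (0.36 each). These are descriptions over 9 libraries, in which genes read from the same cells also share differences in cell makeup between libraries.

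Of a list of 28 factors and inhibitors 15 were tested, edgeR called 0, and DESeq2 called 0 at 14 days and 2 at 28 days, both lower, beside 13.4% and 6.58% of all genes. The median log2 fold change of the 15 was 0.39 at 14 days and -0.07 at 28 days, beside -0.07 and -0.08 for all genes. The 2 genes were Serpine2, which encodes a thrombin inhibitor of the vessel wall, and Ano6, whose product exposes the phosphatidylserine on which clotting complexes assemble. Serpine2 was read at 578, 288 and 485 CPM in sham, 321, 270 and 424 CPM after 14 days, and 245, 136 and 146 CPM after 28 days (-1.36 ± 0.35 log2 at 28 days, edgeR adjusted p = 0.215, DESeq2 adjusted p = 0.00515). All 28-day libraries were below the others for Serpine2. Ano6 was 226, 219 and 191 CPM, 188, 174 and 153 CPM, and 125, 153 and 135 CPM in the 3 groups (-0.62 ± 0.16 log2 at 28 days, edgeR adjusted p = 0.215). The smooth muscle sums of all 28-day libraries were also below those of sham, and the part of cell makeup in both genes was not tested. Tfpi2, another inhibitor of the family, had 1.15 ± 0.397, 2.81 ± 1.59 and 3.15 ± 0.549 CPM (SD, n = 3). Its 28-day libraries were all above sham, as were those of 12.2% of all genes.

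Of 24 genes of receptor signalling all were tested and edgeR called 0. DESeq2 called 5 higher at 14 days (Gnai2, Arrb1, Arrb2, S1pr1 and S1pr2), and S1pr1 higher and Rock1 lower at 28 days, where 13.4% and 6.58% of all genes were called. In the macrophage-rich 14-day replicate 2, Arrb2 was 287 CPM against 56.3 and 86.8 in the other 14-day libraries, S1pr2 68.1 against 16.1 and 13.8, and Gnai2 1149 against 559 and 749, and the part of its cell makeup was not tested. The median log2 fold change was 0.21 at 14 days and -0.00 at 28 days. Arrb1, an arrestin that takes activated receptors off the surface, was at 79.4, 87.1 and 94.0 CPM in sham, 141, 141 and 116 CPM after 14 days, and 132, 120 and 108 CPM after 28 days, all Ang II libraries being above sham (0.54 ± 0.14 log2 over both times, edgeR adjusted p = 0.125, DESeq2 adjusted p = 0.00279). S1pr1, the sphingosine phosphate receptor that activated protein C acts through on endothelium, was likewise above sham in all 6, with means of 83.1 ± 15.6, 159 ± 58.5 and 164 ± 26.9 CPM. So were 5 of the 24 genes of the list, beside 8.57% of all genes tested. Rock1, a kinase downstream of RhoA, was 169, 82.3 and 131 CPM in sham and 58.0, 47.7 and 49.1 CPM at 28 days, without overlap (-1.30 ± 0.33 log2, edgeR adjusted p = 0.213). Beside it, the smooth muscle sums were 29983, 9932 and 21020 CPM in sham and 7352, 2781 and 2181 CPM at 28 days. The part of cell makeup in the Rock1 difference was not tested.

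Of 11 genes of fibrinolysis, the removal of fibrin, 7 were tested and edgeR called 0. DESeq2 called 3 higher at 14 days, Plau, Plaur and Thbs1 (13.4% of all genes were called), 0 at 28 days (6.58%), and Thbs1 lower between the times (0.800%). The median log2 fold change was 0.69 at 14 days and 0.14 at 28 days. Plau, the urokinase gene, was 16.6 ± 6.36, 51.4 ± 30.4 and 31.3 ± 5.48 CPM in the 3 groups, and Plaur, its receptor, 10.1 ± 6.18, 32.8 ± 15.9 and 16.7 ± 1.80 CPM. Thbs1, a matrix protein that thrombin releases from platelets, was 55.8 ± 19.7, 357 ± 146 and 124 ± 52.8 CPM. All 3 genes were highest in the macrophage-rich 14-day replicate 2, Plau at 86.1 CPM against 38.7 and 29.4 in the other 14-day libraries, Plaur at 50.5 against 19.7 and 28.3, and Thbs1 at 512 against 339 and 222. The part of that library's cell makeup was not tested. The 3 lists were written with earlier results of these data known. From each list 3 genes were picked for the smallest edgeR p for both times against sham. Their distance from sham follows from that choice. They were Serpine2, Ano6 and Tfpi2, then Arrb1, S1pr1 and Rock1, then Plau, Plaur and Thbs1.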

How the data were processed

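RNA of 9 aorta libraries was measured by RNA-seq. Expected counts per gene were deposited by the authors, 1 file per library. The labels' protocols name TRIzol for the RNA and an MGIEasy mRNA kit for the libraries. RSEM 1.3.1, HISAT2 2.2.1, Bowtie2 2.4.5 and the build GRCm38.p6 stand in the submitters' processing notes. For their roles and for strandedness, the sources used here give nothing. RSEM shares ambiguous reads among genes, so 9.77% to 11.04% of values in a library were not whole, and they were rounded.

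Genes were named by Entrez Gene ID through RefSeq GRCm38.p6 (18775 of 18830 matched), and gene positions and exon lengths come from GENCODE M21 on the same build. The exon length of a gene merges the exons of all its transcripts, so levels per kb depend on that choice. Low genes were filtered with filterByExpr (14741 left, all 10 members among them, F2rl2, F2rl3 and F10 with few reads), and scaled by TMM. The quasi-likelihood model of edgeR 4.0.16 (glmQLFit, robust, R 4.3.3) took all 9 libraries at once, with a mean for each group, and each comparison was adjusted by Benjamini-Hochberg with a threshold of 0.05. The SE of a log2 fold change was taken as its size divided by the root of the F statistic. CPM are counts over the TMM-scaled totals. Exact permutation of 3 against 3 libraries cannot go below p = 0.1 and was not used. Replicates differed beyond counting noise. The labels do not say that they are separate animals, so the spread behind the p-values may not be that between mice. The scripts were tested on simulated counts.

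Members, lists, motifs and ratios were chosen with earlier results of these data known. The genes named are the 10 members, from each of 3 lists the 3 tested genes with the smallest p for both times against sham, by likeness the 2 nearest genes to each member (for F2rl2 not reported here), and the first 2 genes of marker lists. Iqgap2, Pf4, Ppbp, Gp9, Gp6, Gp5, Tubb1, F2, F5, F7, F9, F11, Fga, Proc, Gnai2, Arrb2 and S1pr2 were chosen after their values were seen. Alternatives were DESeq2 1.42.0, limma-voom 3.58.1, RLE factors, other filters, the replicate block, only the compared groups, and leaving out libraries. A fit to FPKM values was not run, as FPKM were not used here.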

Additional observations from a re-analysis of the deposited data

How the results depend on the processing

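With 3 libraries a group and a biological coefficient of variation of 51.3%, edgeR called 0 genes in each comparison, and limma-voom also called 0. DESeq2 called 1970 genes and 3 of the 10 members at 14 days, 970 and 0 at 28 days, 118 and 1 between the times, and 1797 and 2 for both times. The fit of only the groups compared called 1 gene at 14 days. With the replicate block 1 gene was called at 14 days and 1 for both times, and 0 members. The block stands for a shared number only: same-numbered libraries correlated at -0.553 to 0.646 and others at -0.734 to 0.716. Leaving out 1 library gave 0 to 7 genes at 28 days (5 without sham replicate 2, 7 without 28-day replicate 3) and 0 to 5 for both times (5 without sham replicate 2).

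Of 658 recomputed fold changes of the members, 614 kept direction and side of the threshold, 6 passed it by DESeq2, and 38 in 15 of 40 values changed sign. As the main fit called 0 members, the side could change only by a new call. Some refits left out a library outside the comparison and could move little: without a 28-day library, F2r at 14 days against sham was 1.05 to 1.07 log2. At 28 days against sham F2rl2 was 0.10 log2 by limma-voom, 0.07 with the replicate block and 0.81 without the nerve-rich libraries, where F3 was 0.12 and Procr -0.12. Between the times F2rl3 was -0.10 and Thbd 0.14 without those libraries. Leaving out single libraries gave, at 14 days, -0.22 to 0.69 for F2rl3 and -0.40 to 0.27 for F3. At 28 days it gave -0.21 to 0.06 for F2r, -0.67 to 1.30 for F2rl2, -0.24 to 0.28 for F3, -0.15 to 0.42 for Thbd and -0.15 to 0.61 for Procr. Between the times it gave -0.90 to 0.52 for F2rl1, -0.30 to 0.36 for F3, -0.32 to 0.13 for Thbd, -0.39 to 0.10 for Tfpi and -0.43 to 0.06 for Pros1. For both times it gave -0.25 to 1.72 for F2rl2 and -0.26 to 0.26 for F3. The cause was not tested. F2rl2, F2rl3 and F10 did not enter the filter of 5 CPM in 3 libraries, and the fit to FPKM values was not run.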
